A study of Mus musculus with 2 samples.

Results

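A set of 10 genes with known roles in regulatory T cells or in immune checkpoints were followed in CD8+CD122+ T cells, set against CD8+CD122- T cells, on 2 two-colour arrays. They are Foxp3, Ikzf2, Il10, Ctla4, Pdcd1, Lag3, Icos, Nt5e, Entpd1 and Gpr83. Their probes were taken by name: every probe that is not a control and that carries one of these symbols in either scanner file was used, whatever its value. That gave 11 of the 41174 probes on the array, for 9 of the 10 genes. Nt5e and Entpd1 had 2 probes each, and no probe carried the symbol Ikzf2. Of the 11 probes, 8 passed the filter used here, which asks that a probe lie well above background in the same population on both arrays; these 8 probes stand for 8 genes, and Lag3 had none.

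Both populations were sorted from the spleens of C57BL/6 mice, and their amplified messenger RNA was hybridised together, so that each array compares them directly. CD122 is the beta chain shared by the receptors for interleukin 2 and interleukin 15, and the title of the series calls the CD8+CD122+ cells regulatory T cells. On array 1 the CD8+CD122+ RNA was labelled with Cy5 and its partner with Cy3. The dyes were exchanged on array 2, which the labels call a second trial. The labels give no age, sex or number of mice and do not say whether the second trial used new animals, so the spread between the 2 arrays may be technical.

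Regulatory T cells hold other T cells in check. The best known are CD4+ cells that depend on the transcription factor Foxp3; they carry the inhibitory receptor CTLA-4 and the ectoenzymes CD39 and CD73, which turn extracellular ATP into adenosine, and some make interleukin 10. Checkpoint receptors such as PD-1 and LAG-3 are also found on activated and exhausted CD8+ T cells, so most of these genes mark a state of a T cell and not one lineage.

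One of the 8 tested probes, that of Gpr83, was lower in CD8+CD122+ cells by at least 2-fold on each array, and none was higher by that much on each. Among all 30794 tested probes, 25 (0.0812%) were 2-fold lower and 78 (0.253%) were 2-fold higher by this rule of size, which carries no p-value. The probes of Nt5e and Entpd1 were higher and those of Il10 and Gpr83 lower on both arrays at any size, while Foxp3, Ctla4, Pdcd1 and Icos had opposite signs on the 2 arrays. These are the signs after loess with an offset of 50. The pattern of signs held in all 7 ways of computing ratios for Gpr83, Ctla4 and Pdcd1. It held in 6 of 7 for Nt5e, Il10, Foxp3 and Icos, and in only 2 of 7 for Entpd1. Over all tested probes, 27.8% were higher and 25.6% lower on both arrays. With limma and Benjamini-Hochberg adjustment over all tested probes, none of the 8 passed an adjusted p of 0.05, and among all tested probes 0% were called higher and 0% lower. The smallest adjusted p of any probe was 0.146, and 1884 probes had an unadjusted p under 0.05, of which 808 were higher and 1076 lower. In RNA of a whole sorted population, fewer cells of a type and less RNA per cell cannot be told apart.

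Signal strength limits these comparisons. Negative control spots had a 95th percentile of the mean signal of 67.0 in CD8+CD122+ and 86.2 in CD8+CD122- on array 1, and of 98.0 and 92.9 in the same order on array 2. Across all spots that are not controls, between 69.5% and 83.4% lay well above background in the 4 measurements. Signals of the 2 dyes are not on one scale, so direction is read from the log2 ratio after normalisation, always CD8+CD122+ over CD8+CD122-, and not from the raw signals. The authors' deposited table of ratios runs in the opposite direction. The ratios carry an offset of 50 that shrinks those of dim probes. No member probe was saturated.

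**Figure D1:**
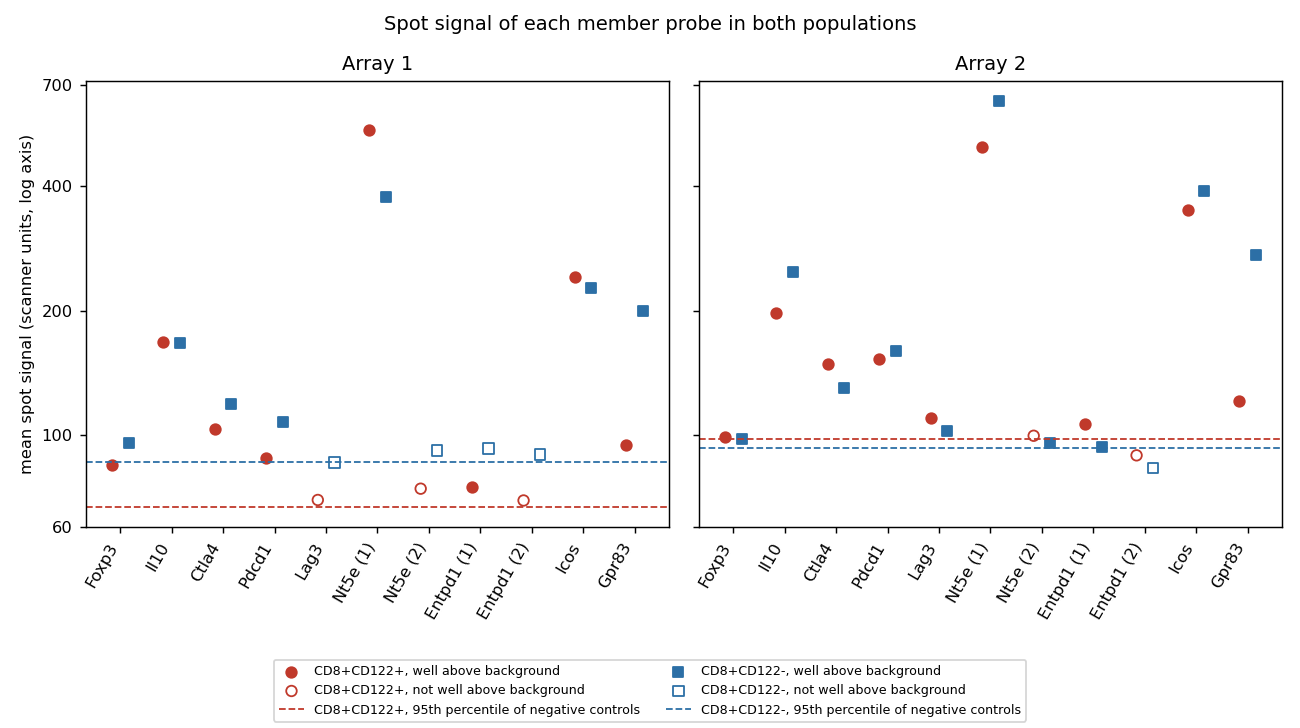
Mean spot signal (scanner units, log axis) of the 11 member probes on each array, with CD8+CD122+ as circles left of CD8+CD122- as squares; open symbols were not well above background, and dashed lines are the 95th percentile of the negative controls. Nt5e (1), Icos and Il10 lie clear of the negative controls in both populations, and Foxp3, Lag3, Nt5e (2) and both Entpd1 probes lie close to them.

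Foxp3, the transcription factor that defines CD4+ regulatory T cells and is encoded on chromosome X, was barely brighter than the negative controls. Its probe A_51_P401096 had mean signals of 84.6 in CD8+CD122+ and 95.9 in CD8+CD122- cells on array 1, and of 98.8 and 97.7 in the same order on array 2. These are 1.26, 1.11, 1.01 and 1.05 times the 95th percentile of the negative controls, although the scanner marked all 4 as well above its local background. The populations did not separate: the log2 ratio was 0.12 on array 1 and -0.07 on array 2. The mean was 0.03 ± 0.14 (SD, n = 2 arrays), with a 95% interval from limma of -0.24 to 0.29 (limma adjusted p = 0.971). On this shrunken scale the interval spans 0.848-fold to 1.22-fold, and a signal this close to the controls gives little room to see a difference.

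Ikzf2 encodes Helios, an Ikaros family transcription factor found in many regulatory T cells. It was not analysed under its own symbol, but the reference table ties 3 probes with other names in the files to it, and they are given beside the members. A_51_P413398 had log2 ratios of 0.07 and 0.10, with signals of 108 and 131 in CD8+CD122+ cells and 112 and 133 in CD8+CD122- cells on arrays 1 and 2. The other probes, A_52_P413515 and A_52_P431483, were tied to Ikzf2 only by a synonym, and both were dim. A_52_P413515 had log2 ratios of -0.14 and -0.14, with signals of 94.4 and 118 in CD8+CD122+ cells and 112 and 131 in CD8+CD122- cells. A_52_P431483 had 0.01 and 0.15, with signals of 84.5 and 125, and 99.2 and 119, in the same order. The 3 probes differ in sign and lie near 0, with limma adjusted p-values of 0.901, 0.855 and 0.919.

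Il10 encodes interleukin 10, an anti-inflammatory cytokine. Its probe A_51_P430766 was clearly above the controls, with signals of 168 and 198 in CD8+CD122+ cells and 167 and 248 in CD8+CD122- cells on arrays 1 and 2. The log2 ratios of -0.08 and -0.04 lay close together and close to 0. The mean was -0.06 ± 0.03 (SD, n = 2), with a 95% interval of -0.25 to 0.14 (limma adjusted p = 0.931). Centring each array on its median instead of using loess gave 0.07 and -0.24, so the agreement in sign of the arrays depends on that step.

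Among the checkpoint receptors, Ctla4, which competes with CD28 for the ligands CD80 and CD86, was split between the arrays. Its probe A_52_P184548 had signals of 103 and 148 in CD8+CD122+ cells and 119 and 130 in CD8+CD122- cells on arrays 1 and 2. The log2 ratio was -0.13 on array 1 and 0.38 on array 2, a gap of 0.52 where the median gap over all tested probes was 0.117. The mean of 0.13 ± 0.37 (SD, n = 2) had a 95% interval of -0.40 to 0.65 (limma adjusted p = 0.936). The arrays were further apart with the scanner's processed signals, at -0.31 and 0.77.

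Pdcd1 encodes PD-1, an inhibitory receptor of activated and exhausted T cells. Its probe A_51_P285736 had signals of 88.3 and 153 in CD8+CD122+ cells and 108 and 160 in CD8+CD122- cells. The arrays again gave opposite signs, -0.18 and 0.15, and the mean was -0.02 ± 0.23 (SD, n = 2; limma adjusted p = 0.986). The 95% interval ran from -0.37 to 0.34.

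Lag3 encodes an inhibitory receptor that binds MHC class II. Its probe A_51_P264825 was not well above background in either population on array 1, with 69.8 in CD8+CD122+ and 86.0 in CD8+CD122- cells. On array 2 both populations were above it, with 110 in CD8+CD122+ and 102 in CD8+CD122- cells. The probe was therefore not tested. Its log2 ratios were 0.03 and 0.13, and a difference was not detectable at this signal.

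Icos, a co-stimulatory receptor of the CD28 family, was clearly above the negative controls. Its probe A_51_P371279 had signals of 241 and 349 in CD8+CD122+ cells and 226 and 388 in CD8+CD122- cells. The log2 ratio was -0.13 on array 1 and 0.34 on array 2, again with opposite signs. The mean was 0.11 ± 0.33 (SD, n = 2), with a 95% interval of -0.37 to 0.58 (limma adjusted p = 0.939). Median centring brought the 2 arrays to 0.09 and 0.03.

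The 2 ectoenzymes act in sequence. Entpd1 encodes CD39, which removes phosphates from ATP and ADP, and Nt5e encodes CD73, which makes adenosine from AMP. The Nt5e probe A_52_P574668 was far above the negative controls, with signals of 545 and 497 in CD8+CD122+ cells and 377 and 640 in CD8+CD122- cells on arrays 1 and 2. Its log2 ratios were 0.21 and 0.17, with a mean of 0.19 ± 0.03 (SD, n = 2), or 1.14-fold higher. The 95% interval reached from just under 0 to 0.39, and the limma adjusted p was 0.816. Median centring gave 0.50 and -0.18, so the sign on array 2 depends on the scaling. The other Nt5e probe, A_51_P156740, was above background only in CD8+CD122- cells on array 2 and had log2 ratios of 0.02 and -0.04.

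For Entpd1, probe A_52_P21835 was well above background in 3 of 4 measurements, with signals of 75.1 and 107 in CD8+CD122+ cells and 92.9 and 93.8 in CD8+CD122- cells. Its log2 ratios were 0.03 and 0.11, and the mean of 0.07 ± 0.06 (SD, n = 2) had a 95% interval of -0.13 to 0.28 (limma adjusted p = 0.918). The sign on array 1 depends on the processing. The scanner's processed signals gave -0.16 and 0.35, median centring -0.08 and 0.28, and no background correction -0.03 and 0.12. The second probe, A_51_P504337, was above background in none of the 4 measurements, and its log2 ratios were -0.09 and -0.05.

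Gpr83 encodes a G protein-coupled receptor whose transcript is known to be raised in Foxp3+ regulatory T cells of mice. It was the member furthest from 0, on the side of lower levels in CD8+CD122+ cells. Probe A_51_P211436 had signals of 94.8 and 121 in CD8+CD122+ cells and 200.1 and 273 in CD8+CD122- cells on arrays 1 and 2, all well above background. The CD8+CD122+ signals were only 1.41 and 1.23 times the 95th percentile of the negative controls, so that side of the ratio was dim. The CD8+CD122- signals were 2.32 and 2.94 times it. The log2 ratios were -1.27 and -1.12, with a mean of -1.20 ± 0.10 (SD, n = 2), or 2.29-fold lower, and a 95% interval of -1.43 to -0.96. The limma adjusted p was 0.329 and ranged between 0.236 and 0.517 over the alternatives, so the difference did not pass the test across all probes. Counted from the lowest mean ratio, Gpr83 stood at place 30 of the 30794 tested probes. The size depended on how background was treated. With the scanner's own processed signals the log2 ratios were -2.43 and -2.03, a mean of 4.69-fold lower. With no background correction they were -1.08 and -0.94, and Gpr83 no longer met the 2-fold rule on both arrays.

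**Figure D2:**
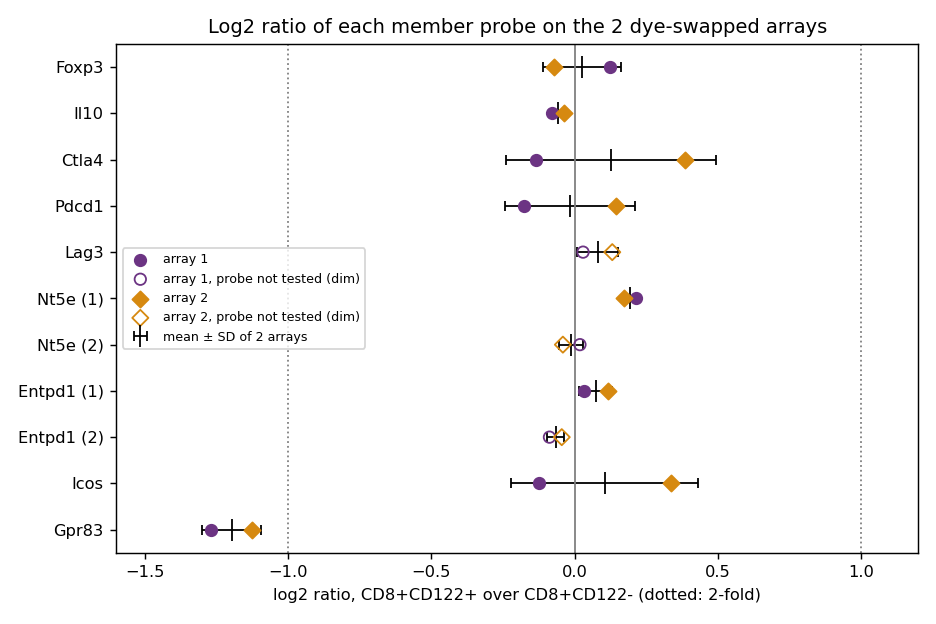
Log2 ratio (CD8+CD122+ over CD8+CD122-) of each member probe on array 1 (circles) and array 2 (diamonds), with the mean and SD of the 2 arrays in black; open symbols are probes that were not tested. Gpr83 lies beyond the dotted 2-fold line on both arrays, and every other probe lies between -0.18 and 0.38.

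Without Gpr83, the 7 other tested probes had array values between -0.18 and 0.38 and means between -0.06 and 0.19. The median of the 8 tested probes was 0.05, and that of all tested probes was 0.003. The gap between arrays had a median of 0.19 for these 7 probes.

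**Figure D3:**
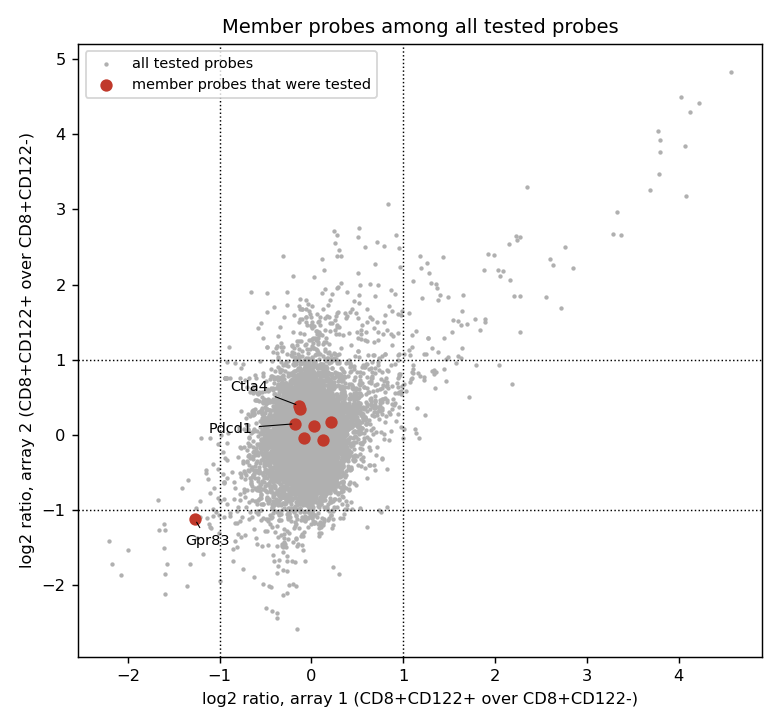
Log2 ratio on array 1 (horizontal) and array 2 (vertical), CD8+CD122+ over CD8+CD122-, for the 30794 tested probes in grey and the 8 tested member probes in red; dotted lines mark 2-fold. Gpr83 sits in the lower left corner, and the other 7 lie within the main cloud.

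The related genes of each pathway were read by the same rule of size. Of 25 other regulatory T cell genes, 21 were tested, and 1 was 2-fold lower, none 2-fold higher and 20 neither, with a median of 0.04 over 33 probes. Of these probes, which share 21 genes, 18 were higher and 5 lower on both arrays at any size. Over all tested probes, 27.8% were higher and 25.6% lower. The counts were 6 and 7 of 18 probes for the other inhibitory receptors and ligands. They were 12 and 7 of 31 for the regulators of Foxp3. The regulatory T cell gene that was 2-fold lower was Itgae, which encodes the integrin chain CD103. Its brighter probe had signals of 289 and 277 in CD8+CD122+ cells and 905 and 1345 in CD8+CD122- cells, with log2 ratios of -2.08 and -1.86, or 3.92-fold lower. Its second probe had -0.96 and -1.10, and the adjusted p-values from limma were 0.30 and 0.367. Il2ra, the alpha chain of the interleukin 2 receptor (CD25), did not differ beyond its spread on its 1 tested probe, at -0.01 and 0.05.

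Of 20 other inhibitory receptors and ligands, 14 were tested, and 1 was 2-fold higher, none 2-fold lower and 13 neither, with a median of -0.05. The higher one was Klrc1, which encodes the inhibitory lectin-like receptor NKG2A. One probe had log2 ratios of 1.99 and 2.40, or 4.58-fold higher, and the other 0.60 and 0.54. Tigit had no probe found here and was not analysed.

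In the list for CD28 family co-stimulation, 9 of 11 genes were tested and none passed the rule of size in either direction. The median was 0.05 over 28 probes. Besides Cd28, Cd80, Cd86 and Icosl, the list held Cd226, Pvr, Nectin2 and the signalling genes Grb2, Pik3r1, Ptpn6 and Ptpn11. Cd28, the co-stimulatory receptor that shares ligands with Ctla4, had log2 ratios of 0.44 and 1.67 on one probe and 0.04 and 0.18 on the other. Its SD of 0.87 on the first probe was nearly as large as its mean of 1.06. Cd226, an activating receptor that competes with Tigit, was lower on both arrays for all 4 of its probes, with means between -0.82 and -0.05.

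In a list drawn widely around the extracellular purine pathway of Nt5e and Entpd1, 15 of 17 genes were tested. None passed in either direction, with a median of -0.01. The genes named from it by the rule, Dpp4 and P2ry10, are not themselves purine enzymes or purine receptors. Dpp4, which encodes CD26, a peptidase that binds adenosine deaminase in humans, had log2 ratios of -0.57 and -0.75 on its brightest probe. P2ry10, a lysophospholipid receptor of the P2Y-like family, had 0.20 and 1.57, with an SD of 0.97.

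For interleukin 10 production and signalling, 11 of 12 genes were tested, and 1 was 2-fold higher, none 2-fold lower and 10 neither, with a median of 0.15. The higher one was Nfil3, a transcription factor known to promote Il10 in T helper cells, at 1.11 and 2.05 on its brighter probe and 0.84 and 1.71 on the other. Il10ra, the ligand-binding chain of the receptor, was named after its values were seen. It had 0.78 and 0.66, a mean of 0.72 ± 0.09 (SD, n = 2), without passing the rule. Socs3, at 0.72 and 0.93, also fell short of the rule. So did Bhlhe40, at 0.95 and 2.48 on one probe and 0.05 and -0.61 on its brighter one. Other genes of the list did not share this direction. Il10rb was split on its tested probe, at 1.18 and -0.04. Il27ra was lower on both arrays, at -0.40 and -0.56. Tyk2, at -0.10 and -0.13, and the tested probe of Maf, at -0.07 and -0.04, were also lower on both. Of the 15 tested probes of the list, 6 were higher and 4 lower on both arrays, where 27.8% and 25.6% of all tested probes were.

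All 21 regulators of Foxp3 were tested and none passed in either direction, with a median of 0.05. Nr4a1 and Nr4a2, nuclear receptors that act on Foxp3 and are induced by T cell receptor signalling, had log2 ratios of 0.91 and 1.87, and 0.51 and 2.15, higher on both arrays but far apart between them. In the Ikaros family, 4 of 4 genes were tested and none passed, with a median of -0.00; Ikzf1, the founding member and the 1 gene of the list with the same sign on all its tested probes, had -0.72 and -0.54. None of these lists was given a test as a set, and the adjusted p-values from limma of the genes named in them were 0.30 or higher.

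**Figure D4:**
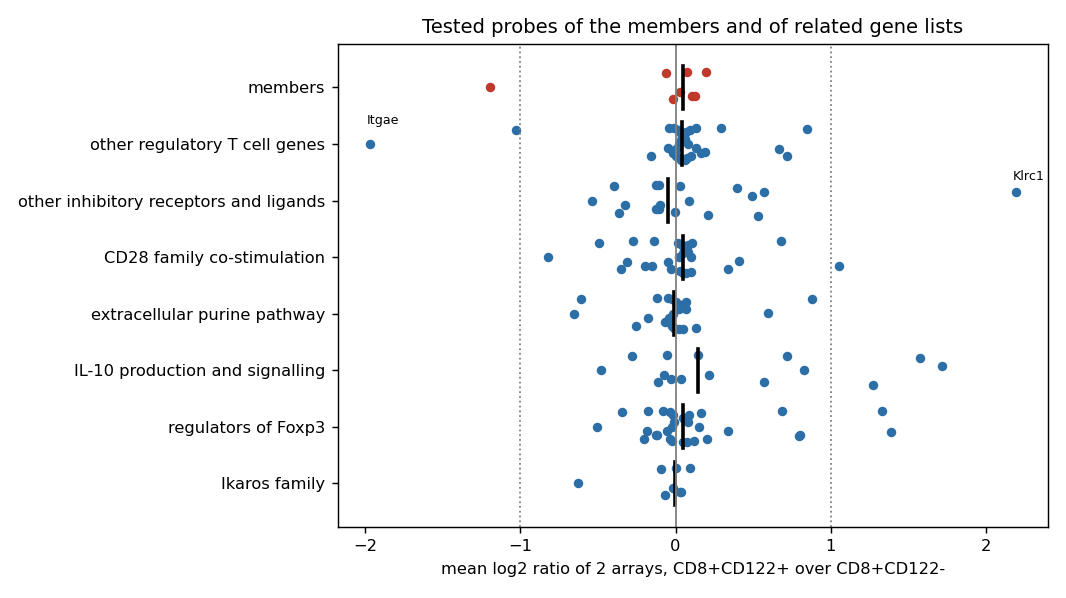
Mean log2 ratio of the 2 arrays (CD8+CD122+ over CD8+CD122-) for every tested probe of the members (red) and of 7 related gene lists (blue), with the median of each as a black bar and dotted lines at 2-fold. The medians lie between -0.05 and 0.15, with Itgae at the low end and Klrc1 at the high end.

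Il2rb, which encodes CD122, was higher in the cells sorted for it. It had signals of 9033 and 4432 in CD8+CD122+ cells and 1012 and 1405 in CD8+CD122- cells, with log2 ratios of 2.60 and 2.34, or 5.56-fold higher. Cd8a had log2 ratios of -0.31 and -0.91 on its brightest probe, and Cd8b1 had -0.48 and -0.86. Markers of CD4+ T cells, the main source of Foxp3 in the spleen, were dim: 2 of 3 genes were tested, and Cd4 had signals of 103 and 126 in CD8+CD122+ cells and 106 and 143 in CD8+CD122- cells on its tested probe, while its other probe was above background in none of the 4 measurements. The 2 tested probes of the list, of 4, had a summed signal above local background that is not corrected for dye. It was 58.9 and 139 in CD8+CD122+ cells and 80.6 and 148 in CD8+CD122- cells. Of B cell markers, 6 of 6 were tested, with means between -0.48 and 0.08, and of NK cell markers 5 of 6, with means up to 0.98. Over all tested probes, 27.8% were higher and 25.6% lower on both arrays. Of the 7 tested NK cell probes, 4 were higher and 0 lower on both arrays, with Klra8 the highest at 1.23 and 0.72. The brighter probes of Klrb1c and Fcer1g were above background in all 4 measurements. Ncr1, another NK cell marker, was above background in none of the 4. Myeloid markers (5 of 6 tested) had means between -0.03 and 0.55. Of dendritic cell markers 5 of 5 were tested, and 1 of the 4 probes of Zbtb46, a transcription factor of conventional dendritic cells, was 2-fold higher, at 1.44 and 1.29. Of erythroid markers 3 of 4 were tested. Positive ratios on both arrays were seen for 27.8% of all tested probes. All 6 tested erythroid probes, most of them for the 1 gene Hbb-bt, had positive ratios on each array, with a median of 0.14. Their summed signals, which are not corrected for dye, were 1754 and 7303 in CD8+CD122+ cells and 1271 and 9864 in CD8+CD122- cells on arrays 1 and 2, larger on array 2 in both. The part of such cells in the members' values was not tested.

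**Figure D5:**
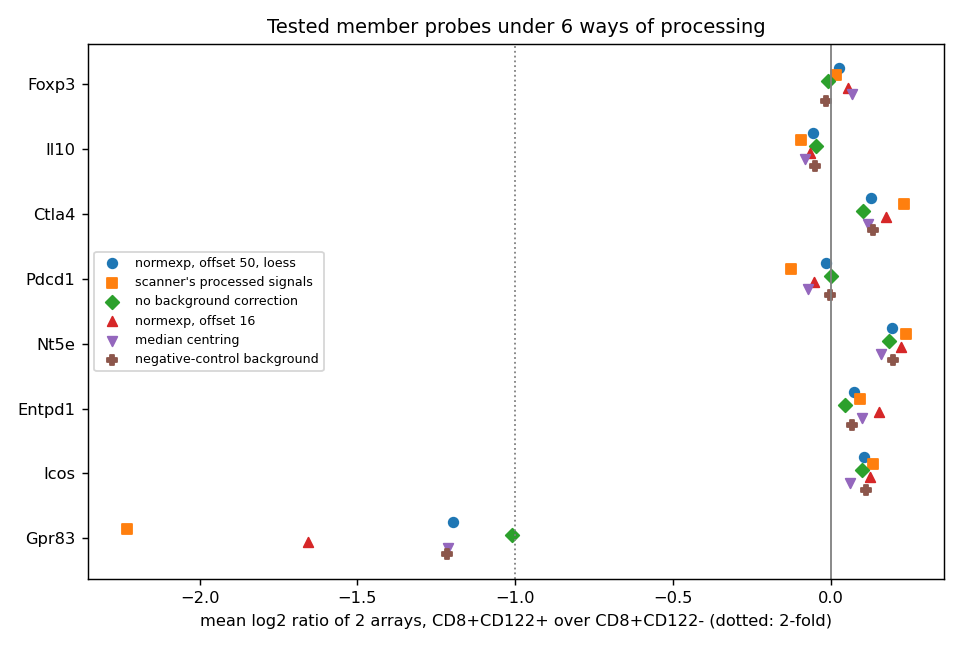
Mean log2 ratio of the 2 arrays (CD8+CD122+ over CD8+CD122-) for the 8 tested member probes under 6 ways of processing. Gpr83 is negative in all of them, from -2.23 with the scanner's processed signals to -1.01 without background correction, and the other 7 lie near 0.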

How the data were processed

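Splenic CD8+CD122+ and CD8+CD122- cells were compared on 2 arrays with the dyes exchanged, per the labels. The scanner files came from Agilent Feature Extraction, in an older version for array 1 than for array 2 (8.1.1.1). Spot intensity values, flags and the log10 of Cy5 over Cy3 are in them, per the file headers. The authors' deposited value table holds the same log10 ratios, turned to CD8+CD122- over CD8+CD122+, opposite to the direction used here; its column medians are 0, and its centring is unknown. The genome build behind the array's own probe positions was not given in the sources used here, and no coordinates are printed.

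Mean intensities were corrected with normexp (offset 50) on the median local background, and normalised within arrays by loess, giving controls a weight of 0 (limma 3.58.1, R 4.3.3). Control and outlier spots were left out, and spots of a probe were averaged. Folds are on the offset scale and understate changes of dim probes. The fit (lmFit and eBayes, two-sided) covered 30794 probes with 1 residual degree of freedom. A dye term would leave 0. The steps were also run on simulated data, with known changes set only in probes that passed the filter. That run does not show how they perform on probes that failed it. Probes were named through RefSeq GRCm38.p6 (21848 by accession, 5774 by symbol, 4394 by synonym, and 9158 kept the file's name).

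The members and lists were chosen with earlier results of these data known. Named were all members, list genes past the rule of size or else the 2 furthest from 0 with the same sign on all tested probes, and Il2rb, Cd8a, Cd8b1, Cd4 and Il2ra. Il10ra, Il10rb, Il27ra, Tyk2, Maf, Socs3, Bhlhe40, Ncr1, Klra8, Klrb1c, Fcer1g and Hbb-bt fall outside this rule and were named after their values were seen. So was Zbtb46, which passed the rule of size but belongs to a marker list. The marker lists were otherwise given by counts and ranges. Alternatives changed background correction, normalisation, filter, eBayes and array. A background taken from negative controls was added after seeing the data. The number of arrays limits the precision.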

Additional observations from a re-analysis of the deposited data

How the results depend on the processing

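Gpr83 stayed at least 2-fold lower on both arrays, and no member was 2-fold higher, under the scanner's processed signals, normexp with offset 16, median centring, the deposited table, the negative-control background, no filter, the stricter filter and either array alone; with no background correction 0 members were 2-fold lower. No member passed limma under any alternative. Of the 8 tested members, 7 kept the sign of their mean in all 7 ways of computing ratios, and Foxp3 did not.

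Over all probes, the count at least 2-fold higher was 199 with the processed signals or the deposited table and 120 with offset 16, and the count lower was 85 with either of the first pair, 42 with offset 16 and 16 with median centring. With 1 array alone, the counts ranged from 109 to 336 higher and from 42 to 219 lower. limma called 6 probes, all higher, with offset 16 (smallest adjusted p 0.0481). The causes were not tested. The limma fit on ratios within each array is itself a paired comparison, so no further block was fitted. Dim spots limit Foxp3, Lag3, Entpd1, Ctla4, Pdcd1, the probes tied to Ikzf2, 1 probe of Nt5e and the CD8+CD122+ signal of Gpr83.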
